A study of Mus musculus with 6 samples.

Results

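The transcripts of the NCoR and HDAC3 corepressor complex were measured in regulatory T cells (Tregs) from the inflamed mouse colon. The 5 members, Ncor1, Hdac3, Tbl1x, Tbl1xr1 and Gps2, were taken by symbol from a table of 24537 genes, and all 5 were present and passed the filter on low values. RNA-seq libraries came from 2 groups of mice with TNBS colitis, 3 labelled knockout (KO) for REV-ERB and 3 labelled wild type (WT). Both groups had been sensitised on the skin with 150 µl of 1% TNBS, a hapten that provokes T cell inflammation of the bowel wall, and had received 100 µl of 2.5% TNBS into the rectum 7 days later. The strain, age and sex of the mice, the cells in which REV-ERB was deleted, and the number of animals behind a library are left unstated by the sources used here. The p-values therefore measure the spread between these libraries, which may be technical.

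REV-ERBα is a nuclear receptor of the circadian clock that lacks the helix by which other nuclear receptors bind coactivators, and it silences genes by recruiting the corepressor NCoR. NCoR carries a domain that switches on the histone deacetylase HDAC3, so the complex removes acetyl groups from histones near the bound gene. TBL1X and TBL1XR1, a pair of related WD40 proteins, hold the complex on histones and help to exchange corepressors for coactivators, and GPS2 joins them to NCoR. In mice, HDAC3 in Tregs is known to be needed for their suppressive function.

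All members were expressed at moderate to high levels in both groups, and none passed the test for a difference between genotypes. Gps2 averaged 76.6 ± 10.6 TPM in KO-labelled libraries and 104.8 ± 11.4 TPM in WT-labelled libraries (mean ± SD, n = 3 each), without overlap, as did 10.4% of all genes tested in that direction. Ncor1 had a lower mean in KO-labelled libraries, with groups that overlapped. Hdac3, Tbl1x and Tbl1xr1 lay within the spread of the libraries. TPM is a transcript's abundance scaled for its length and for library size, so levels can be set side by side between genes.

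The libraries hold 9794480 to 15890630 recovered reads, and each KO-labelled one was deeper than each WT-labelled one. The members rested on at least 561 reads in each library. As a check of the labels, Nr1d1, which encodes REV-ERBα, was measured at 169.2, 154.3 and 141.4 TPM in KO-labelled libraries and 66.3, 104.0 and 88.2 TPM in WT-labelled libraries. It was thus higher in every KO-labelled library, opposite to a loss of the transcript, and the sources used here do not name the deleted exons. The row of Nr1d1 overlaps that of Thra on the opposite strand. Whether counting used strand is not stated, so a part of its reads cannot be assigned with certainty. Thra stood at 17.27 ± 3.38 TPM in KO-labelled libraries and 19.55 ± 2.66 TPM in WT-labelled libraries. Directions below follow the labels as given. Treg and T cell markers were present in every library, Foxp3 among them, and the 10 markers summed to 4852 to 5440 TPM in KO-labelled libraries and 6338 to 7077 TPM in WT-labelled libraries. The 17 epithelial markers, which Tregs should lack, summed to 3732 to 6894 TPM in KO-labelled libraries and 2384 to 3549 TPM in WT-labelled libraries, and all 17 had higher means in KO-labelled libraries. No marker of these lists was at 0 in any library. Foxp3, the defining factor of Tregs, averaged 200.6 ± 32.1 TPM in KO-labelled libraries and 568.4 ± 107.8 TPM in WT-labelled libraries (limma adjusted p = 0.0678). Genes of CD8 and natural killer cells summed to 39.9 to 59.8 TPM in KO-labelled libraries and 67.8 to 75.4 TPM in WT-labelled libraries, with Cd8a and Eomes under 1 TPM throughout. Of these genes Nkg7 alone had groups without overlap, lower under the KO label, a pattern of 10.4% of all genes tested. It stood at 30.5, 48.5 and 32.3 TPM in KO-labelled libraries and 52.9, 57.2 and 66.9 TPM in WT-labelled libraries. Fibroblast, myeloid and B cell sums overlapped, though 10 of 10 fibroblast and smooth muscle markers (median log2 difference 0.36) and 10 of 11 myeloid markers (median 0.20) were above 0. The neutrophil gene S100a8 had 1.22, 5.57 and 8.57 TPM in KO-labelled libraries and was listed at 0 in every WT-labelled library. These values rest on only 4, 20 and 35 reads. Its partner S100a9 overlapped between the groups. It had 0.911, 13.5 and 19.4 TPM in KO-labelled libraries and 0, 0.996 and 2.57 TPM in WT-labelled libraries. In bulk RNA, fewer cells of a type and less RNA per cell cannot be told apart.

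The members kept nearly the same order of level in all libraries. Ncor1 was the highest and Gps2 the next in 6 of 6 libraries, with Ncor1 at 1.11 to 1.43 times the TPM of Gps2. Tbl1x and Hdac3 came next and did not separate, since Tbl1x was the higher in 5 libraries and Hdac3 in the library labelled WT 1. Tbl1xr1 was the lowest in 6 of 6 libraries, and Hdac3 had 2.2 to 3.44 times its TPM. Among the 13211 genes tested, Ncor1 stood at percentile 92.2 of mean level, Gps2 at 89.7, Tbl1x at 80.3, Hdac3 at 76.9 and Tbl1xr1 at 51.3.

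**Figure D1:**
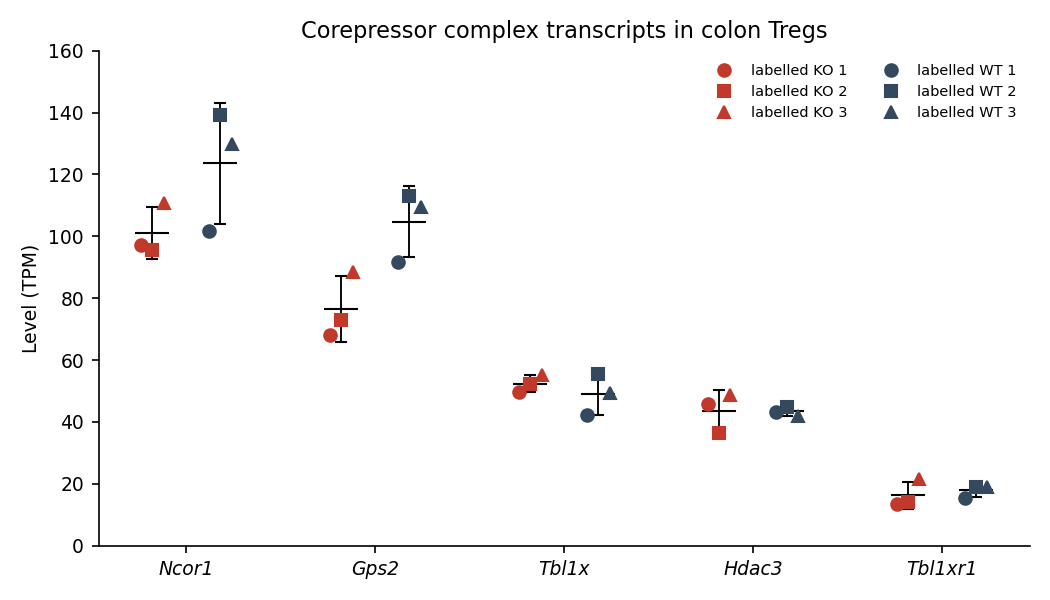
Level in TPM (vertical axis) of the 5 complex members in each library, with libraries labelled KO in red left of WT-labelled libraries in dark blue, and bars for mean ± SD over 3 libraries. The Gps2 points of KO-labelled libraries, 68.2 to 88.5 TPM, all lie below WT-labelled libraries, 91.8 to 113.1 TPM, and the groups overlap for the other 4 members.

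Ncor1 encodes the scaffold NCoR, which contacts the nuclear receptor and HDAC3. Its row (NM_011308, mm10 chromosome 11, 62316426 to 62438515, minus strand) stood at 97.3, 95.5 and 110.7 TPM in KO-labelled libraries and 101.7, 139.3 and 129.9 TPM in WT-labelled libraries. Only the library labelled KO 3 exceeded the lowest library labelled WT, WT 1, so the groups overlapped by this pair. The difference in log2(TPM + 1), labelled KO minus labelled WT, was -0.28 (SE 0.136, 95% confidence interval -0.59 to 0.04, limma adjusted p = 0.3677). The exact two-sided permutation p was 0.2, and the smallest that 3 against 3 libraries can give is 0.1. In a fit that also held the mean log2 level of epithelial markers, the difference was 0.03 (interval -0.41 to 0.46). That level was higher in every KO-labelled library than in any WT-labelled one, so this fit cannot tell it from genotype.

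The deposited row of Ncor1 begins inside the gene as GENCODE vM21 draws it, and RefSeq lists a further start upstream. The 250 bases just before the start of the row (GRCm38.p6, chr11:62438516-62438765, minus strand) are shown to place it, with CpG pairs in capitals.
Ncor1 row start: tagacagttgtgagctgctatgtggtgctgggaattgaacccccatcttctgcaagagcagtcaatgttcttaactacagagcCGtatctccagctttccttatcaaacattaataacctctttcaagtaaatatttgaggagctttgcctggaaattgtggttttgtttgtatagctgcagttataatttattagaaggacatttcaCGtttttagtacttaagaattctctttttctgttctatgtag
This stretch overlaps no annotated exon and holds 2 CpG pairs at 36.8% GC, against a median of 6 pairs and 52.4% GC over 32841 RefSeq windows of that length. The window before the upstream start holds 34 CpG pairs at 73.6% GC. The TPM of Ncor1 therefore belongs to the exons of this row, and a choice between starts was not measured. At its other end the row lies 1 base from that of Ttc19 on the opposite strand, and the GENCODE gene model of Ttc19 runs into Ncor1, so a part of the reads at the 3' end cannot be assigned with certainty. Ttc19 stood at only 6.74 ± 0.849 TPM in KO-labelled libraries and 7.72 ± 1.02 TPM in WT-labelled libraries.

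Hdac3 encodes the deacetylase of the complex (NM_010411, mm10 chromosome 18, 37936971 to 37954988, minus strand). It had 45.9, 36.3 and 48.9 TPM in KO-labelled libraries and 43.2, 44.9 and 42.1 TPM in WT-labelled libraries. The values labelled WT lay inside the range of KO-labelled libraries, whose lowest and highest libraries bracketed them. Its mean was 43.7 ± 6.57 TPM in KO-labelled libraries and 43.4 ± 1.45 TPM in WT-labelled libraries. The log2 difference was -0.00056 (SE 0.131, limma adjusted p = 0.9991), and its interval of -0.30 to 0.30 leaves room for a modest change either way. The sign of so small a value has no meaning, and it turned under 7 of 17 other settings.

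Tbl1x (NM_020601, mm10 chromosome X, 77511227 to 77660265, plus strand) had 49.7, 52.2 and 55.3 TPM in KO-labelled libraries and 42.2, 55.5 and 49.2 TPM in WT-labelled libraries. All KO-labelled values lay inside the range of the WT-labelled ones. It was the one member with a log2 difference above 0, at 0.10 (SE 0.124, interval -0.19 to 0.39, limma adjusted p = 0.7161). Without the library labelled WT 1, its lowest, the difference was 0.0017.

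Tbl1xr1 (NM_030732, mm10 chromosome 3, 22076652 to 22216594, plus strand), the paralog of Tbl1x, was measured at 13.4, 14.0 and 21.4 TPM in KO-labelled libraries and at 15.6, 18.9 and 19.1 TPM in WT-labelled libraries. The library labelled KO 3 was the highest of all and KO 1 the lowest, so the spread was widest among KO-labelled libraries. The log2 difference was -0.15 (SE 0.200, interval -0.61 to 0.31, limma adjusted p = 0.739). Tbl1x was the more abundant of these paralogs in every library. Their ratio in TPM was 3.72, 3.73 and 2.58 in KO-labelled libraries and 2.71, 2.93 and 2.58 in WT-labelled libraries, with groups that overlapped through the library labelled KO 3.

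Gps2 encodes the small subunit that bridges NCoR and the TBL1 proteins and is also known to restrain the ubiquitin-conjugating enzyme encoded by Ube2n. Its row (NM_019726, mm10 chromosome 11, 69914192 to 69916591, plus strand) reached 68.2, 73.0 and 88.5 TPM in KO-labelled libraries and 91.8, 113.1 and 109.4 TPM in WT-labelled libraries. All KO-labelled libraries lay below all WT-labelled libraries, with a narrow gap between KO 3 and WT 1. The KO-labelled libraries had 0.731 times the mean TPM of WT-labelled libraries, a log2 difference of -0.45 (SE 0.133, interval -0.76 to -0.14). It did not pass over all genes (unadjusted p = 0.009844, limma adjusted p = 0.2113), and the exact permutation p was 0.1, the smallest possible here.

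A log2 difference as low as that of Gps2 or lower was found in 7.4% of genes, and an unadjusted p as small in 4.65%. In the limma test 0 of 13211 genes passed the threshold of 0.05 on the adjusted p (background 0.0% in each direction), while 2068 had an unadjusted p below it (15.7%), and voom on the recovered reads also called 0 genes. Of the 5 members, Gps2 alone had an unadjusted p below 0.05, against 7.86% of all genes in the lower direction and 7.8% in the higher. In the fit that also held the epithelial level, the difference of Gps2 was -0.20 (interval -0.66 to 0.27, limma adjusted p = 0.9996). With array weights, which gave the library labelled KO 3 the lowest weight, it was -0.56 and passed (limma adjusted p = 0.03917), among 582 genes that did. Without the library labelled WT 1, 14 genes passed and Gps2 did not (-0.54, limma adjusted p = 0.131).

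Gps2 lies in a crowded stretch of chromosome 11, between Neurl4 upstream on the same strand and Eif5a downstream on the opposite strand. GENCODE vM21 leaves 67 bases between the last exon of Neurl4 and the most upstream exon it draws for Gps2 (GRCm38.p6, chr11:69913821-69913887, plus strand), shown with CpG pairs in capitals because the genes lie so close there. The deposited row of Gps2 begins further downstream, at 69914192, at a different first exon.
Gps2 upstream gap: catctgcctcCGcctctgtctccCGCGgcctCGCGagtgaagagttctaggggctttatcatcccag
The gap holds 5 CpG pairs at 61.2% GC. Neither neighbour, both chosen for their position, was lower in all KO-labelled libraries. Neurl4 stood at 16.8 ± 3.29 TPM in KO-labelled libraries and 18.8 ± 1.82 TPM in WT-labelled libraries (log2 difference -0.17). Eif5a, which encodes a translation factor, stood at 773.1 ± 58.6 TPM under the KO label and 660.2 ± 45.9 TPM under the WT label, with every KO-labelled value the higher. The rows of Gps2 and Eif5a are 120 bases apart, so the deposited intervals share no exon, and no member's row overlapped another row of the table.

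RefSeq start windows were at hand for 4 of the members, Ncor1 with a pair of windows. The 250 bases before each start were searched on both strands. Of the Ncor1 pair, the window at the row start lies inside the gene as GENCODE vM21 draws it. The Gps2 window (69913770 to 69914019) ends before the start of its deposited row at 69914192. None of these 5 windows held the nuclear receptor half-site AGGTCA or the E-box CACGTG. The longer form TAGGTCA, counted also within the shorter one, was absent too. These letters occur in 14.0% (half-site), 6.02% (E-box) and 2.24% (longer form) of all 32841 windows, so an absence is the usual case.

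Of the summed transcripts of the complex, Gps2 held a smaller share in every KO-labelled library. It made up 24.9, 27.0 and 27.3% of the summed TPM of the 5 members in KO-labelled libraries and 31.2, 30.4 and 31.3% in WT-labelled libraries. Tbl1x held 18.1, 19.2 and 17% in KO-labelled libraries and 14.3, 14.9 and 14.1% in WT-labelled libraries, again without overlap and in the other direction. The TPM ratio of Gps2 to Tbl1x was 1.37, 1.40 and 1.60 in KO-labelled libraries and 2.17, 2.04 and 2.22 in WT-labelled libraries. The ratio of Gps2 to Hdac3 was 1.49, 2.01 and 1.81 in KO-labelled libraries and 2.13, 2.52 and 2.60 in WT-labelled libraries. The shares of Gps2 and Tbl1x and both ratios had groups without overlap, were picked after the levels were seen, and are given with no test. The shares of Ncor1, Hdac3 and Tbl1xr1 overlapped between the groups. Shares of a sum depend on each other, and the TPM of Tbl1x itself overlapped. How many gene pairs separate the groups in this way was not counted. The ratio of Ncor1 to Hdac3, 2.34 ± 0.264 in KO-labelled libraries and 2.85 ± 0.425 in WT-labelled libraries, overlapped between the groups.

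**Figure D2:**
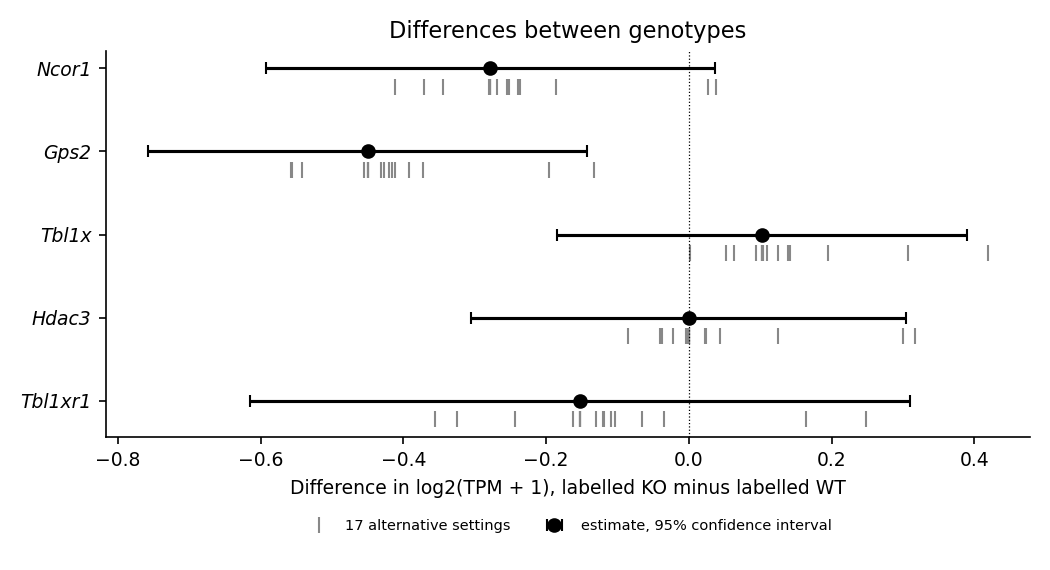
Difference in log2(TPM + 1) between genotypes, labelled KO minus labelled WT (horizontal axis), for the 5 members, with the 95% confidence interval as a bar and the estimates under 17 alternative settings as grey ticks. The interval of Gps2, -0.76 to -0.14, lies below 0, and those of the others span 0.

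Members also varied together within a group. The library labelled KO 3 held the highest value of its group for 5 of 5 members, and WT 2 for 4 of 5. The library labelled WT 1 held the lowest value of its group for 4 of 5 members. How many of all genes share these extremes was not counted, so the pattern is not shown to be particular to the complex. KO 3 had the lowest epithelial sum of its group (3732 TPM) and WT 1 the highest of its group (3549 TPM), while WT 2 had the lowest of all (2384 TPM). The nuclear transcripts Malat1 and Neat1 together summed to 441.7 to 489.6 TPM in KO-labelled libraries and 785.6 to 1006 TPM in WT-labelled libraries. The part of epithelial, T cell and nuclear transcripts in the difference of Gps2 was not tested. The epithelial fit above cannot tell the epithelial level from genotype. The mean log2 level of epithelial markers was 7.10 to 7.93 in KO-labelled libraries and 6.30 to 6.93 in WT-labelled libraries, without overlap. After scaling each library to Cd3d, Cd3e and Cd3g, subunits of the T cell receptor complex, Gps2 differed by -0.13 (interval -0.37 to 0.10) and Ncor1 by 0.04. That scaling shifts the difference of every gene by the same amount, and the median of all genes moved to 0.31. Relative to this median Gps2 stood at -0.45 and Ncor1 at -0.28, which the scaling leaves unchanged by construction.

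**Figure D3:**
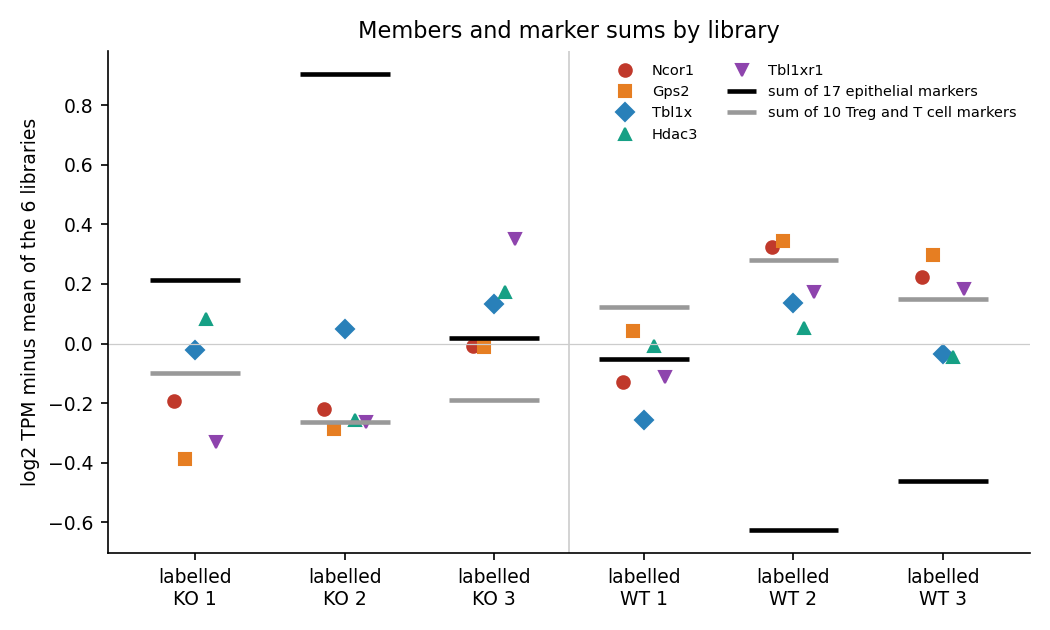
Level of each member (coloured markers) and summed level of 17 epithelial markers (black bars) and 10 Treg and T cell markers (grey bars) in each library, as log2 TPM minus the mean of the 6 libraries (vertical axis). Gps2 and the Treg and T cell sum lie lower, and the epithelial sum higher, in KO-labelled libraries, and all members peak within their group in KO 3.

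Genes with the pattern most like that of each member were found by Pearson's r of log2(TPM + 1) over the 6 libraries, as a description. For Gps2 these were Gzmb, the cytolytic protease granzyme B (r = 0.999), Celf1, an RNA-binding protein (r = 0.999), and Gtf3c2, a subunit of an RNA polymerase III factor (r = 0.998). For Ncor1 they were the kinase gene Ptk2b (r = 0.995), Pitpnc1 (r = 0.994) and AI314180 (r = 0.994). Such high values are easily met over so few libraries, since 910 of 13210 genes reached r of at least 0.9 with Gps2 and 791 with Ncor1. Tbl1xr1 was matched best by Hcfc1, a chromatin cofactor (r = 0.998), then Rexo4 (r = 0.997) and Apobec3 (r = 0.996), with 573 genes at that level. Tbl1x was matched best by the helicase gene Ddx18 (r = 0.990), the adaptor gene Nedd9 (r = 0.982) and Mylpf (r = 0.982), with 83 genes at that level. Hdac3 was matched best by Plekha2 (r = 0.986), Pygo2 (r = 0.984) and Drg1 (r = 0.981), with 54 genes at that level. The libraries share depth and cell makeup across all genes, so these likenesses carry no test.

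Around the complex, the 8 other genes of NCoR complexes all had lower means in KO-labelled libraries. Their median log2 difference was -0.27, against -0.003 over all genes tested. Under the Cd3 scaling, which lifts all genes alike, 5 of the 8 were above 0 (median 0.045, against 0.31 over all genes). In the fit that also held the epithelial level, 8 of the 8 stayed below 0, with a median of -0.11 against 0.013 over all genes. The means that follow are over 3 libraries under each label. In 1 of the 8, Hdac5, every KO-labelled library lay below every WT-labelled library, a share close to the 10.4% of all genes, and 0 passed the threshold over all genes. Coro2a, an actin-binding WD40 protein found in NCoR complexes, stood at 68.7 ± 9.02 TPM under the KO label and 95.1 ± 16.5 TPM under the WT label (log2 difference -0.46, limma adjusted p = 0.2421). Hdac7, a class IIa deacetylase that gains its activity through HDAC3 complexes, stood at 47.6 ± 24.9 TPM under the KO label and 81.8 ± 17.1 TPM under the WT label (log2 difference -0.87, limma adjusted p = 0.2783). Its KO-labelled libraries were widely spread, at 28.4, 38.7 and 75.7 TPM. The difference of Hdac7 was -0.56 without KO 1, -1.26 without KO 3 and -0.28 in the fit that also held the epithelial level. Hdac10 stood at 10.7 ± 1.27 TPM under the KO label and 14.2 ± 2.28 TPM under the WT label (log2 difference -0.37, limma adjusted p = 0.3472).

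Of 14 genes for coactivators, which compete with NCoR for nuclear receptors, 12 had log2 differences below 0 (median -0.20), though under the Cd3 scaling, which lifts all genes, 5 did (median 0.12, against 0.31 over all genes). In the fit that also held the epithelial level, 9 of the 14 were below 0, with a median of -0.015 against 0.013 over all genes. In 5 the groups did not overlap, all lower under the KO label, a pattern of 10.4% of all genes, and 0 passed over all genes. Ncoa3, a p160 coactivator, stood at 73.5 ± 11.6 TPM under the KO label and 103.9 ± 16.7 TPM under the WT label (log2 difference -0.49, limma adjusted p = 0.226). Kat2b, the acetyltransferase PCAF, stood at 14.9 ± 0.760 TPM under the KO label and 21.5 ± 4.06 TPM under the WT label, and Crebbp, the acetyltransferase CBP, at 31.6 ± 3.12 TPM under the KO label and 40.9 ± 4.48 TPM under the WT label.

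The other corepressor complexes (SIN3, NuRD, CoREST and CtBP) were nearly level, with 13 of 23 genes above 0, 10 below, 0 past the threshold and a median of 0.05. In the fit that also held the epithelial level, 18 of the 23 were above 0 (median 0.09). The NuRD genes Mta3 (62.7 ± 10.5 TPM under the KO label and 75.1 ± 7.02 TPM under the WT label) and Mbd3 (62.9 ± 8.61 TPM under the KO label and 52.8 ± 3.96 TPM under the WT label) and the scaffold gene Sin3b (116.6 ± 8.05 TPM under the KO label and 103.1 ± 4.27 TPM under the WT label) had the smallest p of this list. The 13 genes for the folding of HDAC3 by the chaperonin TRiC, for inositol phosphate and for phosphorylation had a median of 0.07 and a narrow range of -0.19 to 0.18, with 9 above 0, 4 below and 0 past the threshold. In the fit that also held the epithelial level, 13 of the 13 were above 0 (median 0.17). Cct6a (126.1 ± 12.8 TPM under the KO label and 111.3 ± 4.91 TPM under the WT label), Ppp4c (164.9 ± 13.5 TPM under the KO label and 148.2 ± 11.1 TPM under the WT label) and Cct5 (279.7 ± 15.1 TPM under the KO label and 256.7 ± 8.74 TPM under the WT label) led it by p.

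Of 4 genes for ubiquitin exchange around NCoR, 2 were above 0, 2 below and 0 past the threshold (median -0.04). The ubiquitin ligase gene Siah1a stood at 9.90 ± 0.550 TPM under the KO label and 12.8 ± 0.789 TPM under the WT label, without overlap (log2 difference -0.34, limma adjusted p = 0.3083). Siah1a was the 1 gene of the 4 with every KO-labelled library below every WT-labelled one, a pattern of 10.4% of all genes. Its close copy Siah1b stood at 3.72 ± 0.899 TPM under the KO label and 3.39 ± 1.28 TPM under the WT label, and the counting could have split reads between this pair. Ube2n stood at 13.5 ± 2.87 TPM under the KO label and 14.9 ± 1.78 TPM under the WT label (log2 difference -0.14, limma adjusted p = 0.7288).

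Of 20 genes for factors that recruit NCoR, 19 were tested, 11 were above 0, 8 below and 0 past the threshold, with a median of 0.08. In 3 of them every KO-labelled library lay above every WT-labelled library, against 10.6% of all genes. They were Nr1d1 (log2 difference 0.86, limma adjusted p = 0.1295), Pparg, a lipid-sensing receptor (17.8 ± 1.07 TPM under the KO label and 10.8 ± 1.87 TPM under the WT label), and Nr1h3, the oxysterol receptor LXRα (6.77 ± 1.47 TPM under the KO label and 3.10 ± 0.657 TPM under the WT label). In Nr1h2 of the same list every KO-labelled library lay below every WT-labelled library, against 10.4% of all genes. In the fit that also held the epithelial level, 10 of the 19 were above 0 (median 0.027, against 0.013 over all genes). There Nr1d1 stood at 1.09 (interval 0.46 to 1.73), Pparg at 0.50 (-0.11 to 1.11) and Nr1h3 at 0.60 (-0.28 to 1.49). Nr1d2, which encodes REV-ERBβ, stood at 68.8 ± 18.2 TPM under the KO label and 61.0 ± 10.04 TPM under the WT label, with groups that overlapped.

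The 9 candidate target genes of REV-ERB, drawn from other tissues, showed no common direction, with 4 above 0, 5 below and 0 past the threshold (median -0.03). Under the Cd3 scaling, which lifts all genes alike, all 9 were above 0 (median 0.29, against 0.31 over all genes). With the epithelial level in the fit, 3 of the 9 were above 0 and 6 below (median -0.075, against 0.013 over all genes). Npas2, a clock activator, stood at 8.53 ± 0.709 TPM under the KO label and 4.42 ± 1.30 TPM under the WT label, without overlap (log2 difference 0.84, limma adjusted p = 0.1901). It was the 1 gene of the 9 with every KO-labelled library above every WT-labelled one, a pattern of 10.6% of all genes. Nfil3, a repressor tied to the clock, stood at 256.2 ± 12.7 TPM under the KO label and 320.1 ± 64.4 TPM under the WT label (log2 difference -0.30, limma adjusted p = 0.3858). Arntl, the clock gene best known as a target of REV-ERB and NCoR, stood at 33.2 ± 3.14 TPM under the KO label and 38.1 ± 1.74 TPM under the WT label (log2 difference -0.20, limma adjusted p = 0.4389). The groups overlapped for Nfil3 and Arntl.

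**Figure D4:**
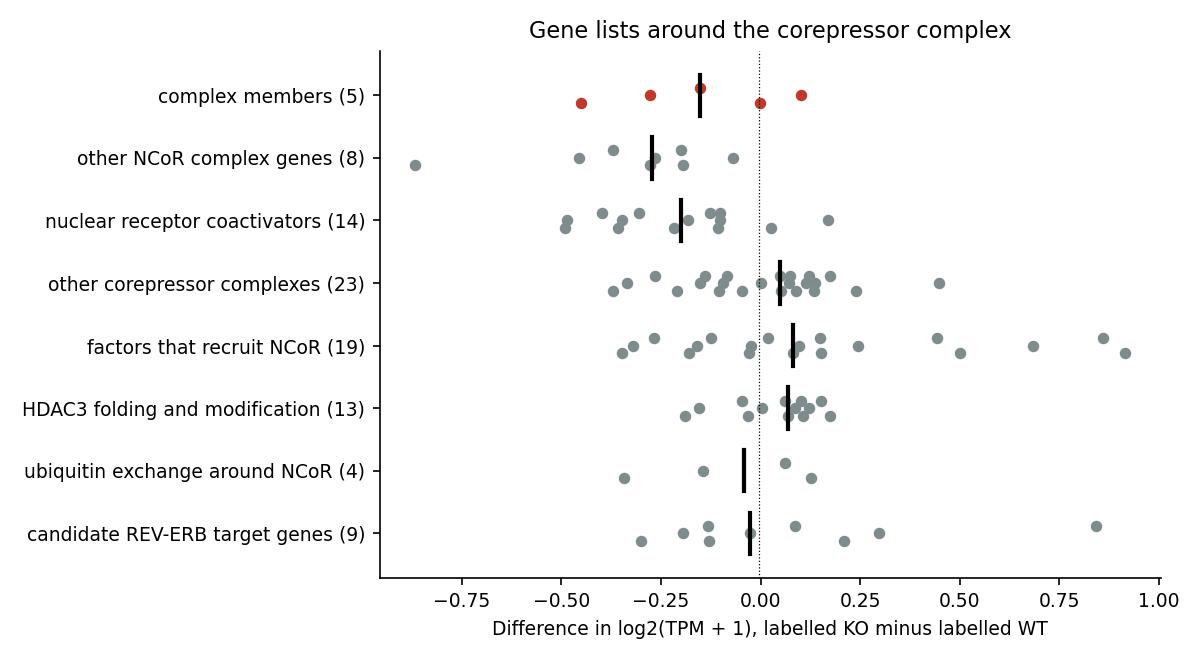
Difference in log2(TPM + 1), labelled KO minus labelled WT (horizontal axis), for each tested gene of 8 lists, with the number tested in brackets, the list median as a black bar and the median of all genes as a dotted line. The members (red) and the other NCoR complex genes lie mostly below 0, as do the coactivators (under the Cd3 scaling the medians of these 3 lists lie above 0, as the median of all genes moves to 0.31), and the remaining lists spread about 0.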

How the data were processed

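Poly(A) RNA of Tregs from the colon was sequenced in 6 libraries after a stranded kit took 1.3 µg of total RNA, per the labels' protocols. The submitters' processing notes list mm10 and, without order or settings, HOMER 4.9.1, STAR 2.5.3a, Trim Galore 0.4.4 and FastQC 0.11.8. The authors deposited TPM, each row a RefSeq transcript with its length, per the file headers. The deposited TPM sum to 634200 to 644662 per library. The sources used here do not state whether counting used strand.

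TPM times length fell within 0.1 of a whole multiple of a fixed step for 99.99% of values up to 500 reads, which gave the reads per library (9794480 to 15890630). They served for depth and for voom. Genes with TPM of at least 1 in at least 3 libraries were tested, 13211 in all, with limma 3.58.1 in R 4.3.3 (variance trend, log2(TPM + 1), genotype only, two-sided, Benjamini-Hochberg over all genes, threshold 0.05). Fold changes on this scale understate the change of low genes. The test was tried on simulated data. Figures used Python 3.11.15 and matplotlib 3.10.9. Start positions count from 1, and sequences are from RefSeq (GRCm38.p6).

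Members, gene lists and tests were chosen with earlier results of these data known. Genes named are the members, Nr1d1, Nr1d2, Foxp3, the 3 of smallest p in each list with none past the threshold, and the 3 most like each member. Some genes of the lists are not reported here, and are left out of the lists' counts. Any other gene was named after its values were seen. Alternatives changed the pseudocount, filter, scaling, variance model, covariates, block and libraries used. The voom fit and the Cd3 scaling were added after the data were seen.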

Additional observations from a re-analysis of the deposited data

How the results depend on the processing

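Each member had 17 alternative settings. Gps2 stayed below 0 in all 17, from -0.56 to -0.13, and Tbl1x above 0 in all 17, from 0.0017 to 0.42. The changed filters, the fit without a variance trend and the replicate block leave an estimate unchanged by construction. They could move the p-value but not the sign, so their agreement in sign carries no weight. Array weights brought Gps2 past the threshold, at -0.56 (limma adjusted p = 0.03917). They gave 582 genes past the threshold, against 0 otherwise with all libraries, and leaving out the library labelled WT 1 gave 14, so that the range over the left-out libraries was 0 to 14. Signs turned as follows, with the cause not tested. With the epithelial covariate Ncor1 was 0.026, Hdac3 0.30 and Tbl1xr1 0.25. With scaling to Cd3d, Cd3e and Cd3g Ncor1 was 0.039, Hdac3 0.32 and Tbl1xr1 0.16, as the median of all genes moved to 0.31. Hdac3 was also 0.00032 at a pseudocount of 5, 0.022 with upper quartile scaling and 0.043 with voom on recovered reads, and ran from -0.085 to 0.12 over the left-out libraries. Over the same libraries Ncor1 ran from -0.41 to -0.19, Tbl1x from 0.0017 to 0.19, Tbl1xr1 from -0.36 to -0.03 and Gps2 from -0.56 to -0.37.

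Among 23 other named genes, 372 of 390 values kept their direction and side of the threshold, 8 passed it and 10 turned. These values include the filters, the fit without a variance trend and the block, which could not turn a sign. With array weights Nr1d1, Foxp3, Coro2a, Hdac7, Pparg, Nr1h3 and Ncoa3 passed (limma adjusted p = 0.01891 for Foxp3 and 0.04885 for Coro2a, the others between), and Foxp3 also passed without the library labelled WT 1 (limma adjusted p = 0.02829). Those that turned were Nr1d2 without the library labelled KO 1 (-0.044, in a range up to 0.33 over the left-out libraries), Siah1b without KO 3 or WT 3 (-0.024 and -0.0064, in a range up to 0.35), Mta3, Ube2n and Nfil3 with the epithelial covariate (0.016, 0.24 and 0.028), and Mta3, Ube2n, Nfil3 and Arntl with the Cd3 scaling (0.051, 0.17, 0.016 and 0.12). Same-numbered libraries did not deviate together (correlations 0.004, -0.219 and -0.041), and no library correlated best with its own number. So few libraries cannot show whether the numbers pair them, which the labels do not say. Replicate numbers as a block leave every estimate unchanged by construction, since each number holds a library of each label. With the block Gps2 was thus at -0.45 (limma adjusted p = 0.2596), and 0 genes passed the threshold. The planned count-based tests on recovered reads were replaced with voom on those reads, since the values are deposited as TPM. With 3 libraries a group, intervals of about 0.3 on either side of an estimate limit what could be seen for members other than Tbl1xr1, whose interval was wider.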

Other observations

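For Hdac7 the library labelled KO 3 stood above KO 1 and KO 2. The same library had the most reads, 15890630, and the lowest array weight, 0.427. The summed TPM of the 5 members was 274.4, 271.0 and 324.7 in KO-labelled libraries and 294.5, 371.8 and 349.7 in WT-labelled libraries.

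The chromatin genes Ep300, Kmt2c and Kdm6a, of the coactivator list, had groups without overlap, lower under the KO label, as had Crebbp and Kat2b, and none passed over all genes with limma. Every KO-labelled library lay below every WT-labelled one in 10.4% of all genes tested. Ep300 stood at 34.0 ± 4.39 TPM under the KO label and 42.1 ± 4.08 TPM under the WT label, Kmt2c at 25.1 ± 0.679 TPM under the KO label and 32.4 ± 4.32 TPM under the WT label and Kdm6a at 20.6 ± 0.960 TPM under the KO label and 24.2 ± 3.02 TPM under the WT label. They were named after their values were seen.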
